A study of Mus musculus with 8 samples.

Results

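Yaa is a Y chromosome that carries a translocated copy of a distal piece of the X chromosome, so that a Yaa male has both its own X copy and a second copy of the genes in that piece. Tlr7 is the best known of them, because the extra Toll-like receptor accelerates lupus-like autoimmunity in mice. Described here are 10 genes that lie beside Tlr7 on the distal X and are not receptors: Ofd1, Trappc2, Rab9, Tceanc, Tmsb4x, Prps2, Msl3, Arhgap6, Hccs and Mid1. They were taken as every probe set that the platform annotation assigns to exactly 1 of these symbols, which gave 17 of the 45101 probe sets of the array. Of the 17, 14 passed the filter on dim signals, and each of the 10 genes had at least 1 of these 14. All 10 were listed as copied together with Tlr7, but the 95% intervals of Ofd1 and Mid1 left out a doubling of RNA, so the 10 are called neighbours of Tlr7 here.

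Spleen cells of 8-week-old male mice were measured on Affymetrix arrays, 1 array for each of 4 B6.SB-Yaa/J samples and 4 C57Bl/6J wild-type samples. The Yaa strain is congenic on the C57BL/6 background, and neither a treatment nor another allele is named for either group. RNA came from single spleens except for Yaa 3, which pooled 2 spleens; the source label of Yaa 2 also names males in the plural. Spleens were teased into cell suspensions and red cells were lysed. B6.SB-Yaa/J carries the Y chromosome of the SB/Le strain, so the groups differ in the whole Y chromosome and not in the copied piece alone.

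These neighbours of Tlr7 share no pathway. Trappc2 and Rab9 serve membrane traffic, Tmsb4x, Arhgap6, Ofd1 and Mid1 the cytoskeleton, Prps2 and Hccs metabolism, and Msl3 and Tceanc belong to nuclear families. In a wild-type male each of them, apart from part of Mid1, is present on the X alone, so a copied gene whose output follows copy number would show a doubling of its RNA, a difference of 1 on the log2 scale. Fewer cells of a type and less RNA per cell cannot be told apart in RNA from a mixed suspension of spleen cells.

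Trimmed mean signals of the arrays ran from 107 to 193, and the arrays were therefore quantile normalised. Yaa 2 and Yaa 3 stood apart, at 68.8 and -92.4 on a first principal component that held 56.8% of the variance, with the other 6 arrays much nearer to 0. In Yaa 3 the mean log2 signal of 7 B cell markers was 5.94, against 10.3 to 10.9 in the other Yaa samples and 10.4 to 10.8 in wild type. The 7 T cell markers stood at 5.69 in Yaa 3 and 9.29 to 10.2 in the other Yaa samples, and at 9.06 to 9.68 in wild type. Cd3e and Cd3d, which define T cells, gave signals of 6.61 and 5.16 in Yaa 3, close to 0, although the label is whole spleen. Erythroid markers had a mean log2 signal of 11.3 ± 0.915 in Yaa and 11.8 ± 0.182 in wild type (SD, n = 4 each), and Yaa 2, at 9.99, was below every other array. The 7 neutrophil markers had a mean log2 signal of 9.29 to 11.9 in Yaa and 9.02 to 9.72 in wild type, and overlapped through Yaa 2 alone. Of these 7, 5 were higher at an unadjusted p under 0.05 in limma, against 3.23% of all tested genes. With array weights 7 passed the adjusted threshold, where 0.658% of all tested genes passed as higher. The median log2 difference of the neutrophil markers, 1.47, was 2.17 without Yaa 2 and Yaa 3. The 7 monocyte and macrophage markers stood at 9.11 to 10.4 in Yaa and 8.77 to 8.90 in wild type, without overlap. Of these markers, 4 were higher at the unadjusted threshold and 3 passed the adjusted one with array weights. Their median log2 difference of 0.84 was 0.43 without Yaa 2 and Yaa 3. The part of these shifts in cell content in the results below was not tested, and some results are also given with Yaa 2 and Yaa 3 left out.

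Most of the genes had more RNA in Yaa spleens. At the brightest probe set of each gene, 9 of 10 genes had a higher mean in Yaa, against 45.8% of all 10340 tested genes. All 4 Yaa arrays lay above all 4 wild-type arrays for 5 genes, Trappc2, Rab9, Tmsb4x, Msl3 and Hccs, where 2.61% of all tested genes did so, and 0 genes lay wholly below, against 1.86%. At an unadjusted p under 0.05 in limma, 7 of 10 genes were higher and 0 lower, against 3.23% and 1.62% of all tested genes. With array weights, and likewise without Yaa 2 and Yaa 3, 1 gene, Mid1, was lower at that threshold. Calls were also more frequent over the whole array in these settings. In either direction, 2549 and 1988 of the 22518 tested probe sets had an unadjusted limma p under 0.05, against 1066 in the main fit. The median log2 difference was 0.62 over the 10 genes and -0.02 over all tested genes. None of the 10 passed limma's test when p-values were adjusted over all 22518 tested probe sets, of which 0.00444% passed. The smallest adjusted p among the 14 member probe sets was 0.055.

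**Figure D1:**
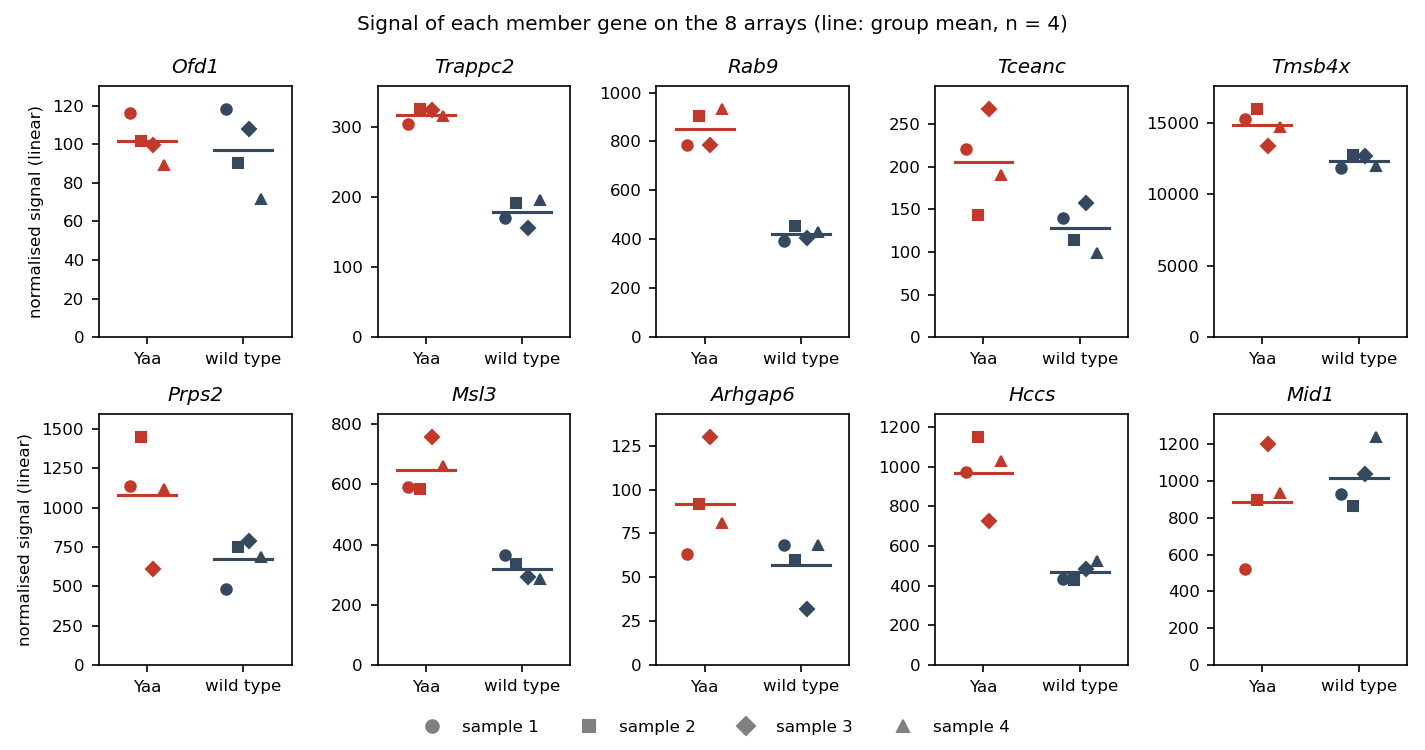
Quantile-normalised signal (linear scale) of the brightest probe set of each gene, with Yaa on the left and wild type on the right of each panel. Points are the 4 samples of a group, marked by sample number, and lines are group means; the groups are apart for Trappc2, Rab9, Tmsb4x, Msl3 and Hccs and overlap for the other 5 genes.

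Trappc2 and Ofd1 are next to each other and had different estimates. Trappc2 encodes sedlin, a subunit of the TRAPP complexes that tether vesicles between the endoplasmic reticulum and the Golgi, and Ofd1 encodes a protein of centrioles and centriolar satellites needed to build cilia. In the RefSeq annotation of GRCm38.p6 they are transcribed away from each other, with 50 bases between the annotated start sites used here. The stretch between the start sites, with 30 bases beyond each, is chrX:166440674-166440785. It is shown on the plus strand, the strand of Trappc2, because both genes begin in it, while Trappc2 alone had every Yaa sample above wild type. Capitals mark TCTCGCGAGA, the longest word that is repeated in the stretch and reads the same on both strands, which occurs at 2 places.
Ofd1-Trappc2: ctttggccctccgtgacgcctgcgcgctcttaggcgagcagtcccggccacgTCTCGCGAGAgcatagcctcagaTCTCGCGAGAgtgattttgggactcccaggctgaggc
Of 32851 windows from 250 bases before to 50 bases after a RefSeq gene start, 0.466% hold this motif, and among the member genes those of Ofd1 and Trappc2 do. The motif was picked from this stretch, and a match is a description of the sequence, not a binding site.

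Trappc2 had normalised signals of 304, 326, 324 and 316 in Yaa samples 1 to 4, against 169.6, 192, 156 and 196 in wild-type samples 1 to 4. The Yaa samples lay within a narrow band, all above the wild-type samples. Trappc2 had a log2 difference of 0.78 ± 0.12 (SE; 95% interval 0.51 to 1.05), or 1.72-fold, with a limma adjusted p of 0.158. Ofd1 had signals of 116, 102, 99.4 and 89.1 in Yaa, against 118, 90.3, 108 and 71.7 in wild type. Here the groups overlapped over most of their range. The log2 difference of Ofd1 was 0.07 ± 0.16 (SE), with a 95% interval of -0.30 to 0.44 that holds 0 and leaves out a doubling. Its sign turned with the values as deposited (-0.13), with arrays centred on their medians (-0.04) and without wild type 4 (-0.05). The difference of Trappc2 exceeded that of Ofd1 by 0.71 on the log2 scale, with overlapping groups (two-sided exact permutation p = 0.0571, and 0.161 adjusted over the 45 pairs of member genes).

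Rab9 encodes a small GTPase that returns mannose 6-phosphate receptors from late endosomes to the trans-Golgi network. Its signals were 786, 903, 787 and 934 in Yaa, against 393, 456, 406 and 429.6 in wild type. The lowest Yaa sample stood well above the highest wild-type sample. Rab9 had a log2 difference of 0.99 ± 0.12 (SE; 95% interval 0.72 to 1.26), or 1.98-fold, with a limma adjusted p of 0.055. It passed limma's test with log2(signal + 1) in place of log2(signal + 16) (adjusted p 0.0497) and without Yaa 2 (adjusted p 0.0291). The difference was 0.76 with the values as deposited (limma adjusted p 0.796) and 0.85 with arrays centred on their medians (limma adjusted p 0.314).

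Tmsb4x encodes thymosin beta 4, which binds actin monomers and is abundant in blood cells. It gave signals of 15289.5, 15981, 13368 and 14709 in Yaa, against 11842, 12740.1, 12693 and 11972 in wild type. The groups did not overlap, but the gap between Yaa 3 and wild type 2 was small. These values lie close to the top of the range, in which the highest deposited signal of any probe set was 20431. Tmsb4x had a log2 difference of 0.27 ± 0.07 (SE; 95% interval 0.11 to 0.43), or 1.20-fold, with a limma adjusted p of 0.723. The interval lies above 0. A doubling of the wild-type signal would lie above the highest signal of any probe set. Whether the array could read such a signal was not tested, so the response of Tmsb4x is not set against a doubling here. With arrays centred on their medians the difference was 0.36.

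Arhgap6 encodes a GTPase-activating protein. Its brightest probe set, 1451867_x_at, gave 63.0, 91.8, 130.3 and 81.0 in Yaa, against 68.7, 59.7, 31.7 and 68.5 in wild type. The groups overlapped, with Yaa 1 below 2 of the wild-type samples. For this probe set the log2 difference was 0.56 ± 0.25 (SE; 95% interval -0.001 to 1.12). It was 0.36 without wild type 3, 0.36 with log2(signal + 64), 0.30 with array weights and 0.30 without Yaa 2 and Yaa 3. A second probe set, 1456333_a_at, gave 48.2, 37.2, 55.8 and 36.7 in Yaa, against 27.6, 30.4, 31.1 and 34.1 in wild type, without overlap. Its log2 difference was 0.36 ± 0.16 (SE; 95% interval 0.006 to 0.71). The third, 1417704_a_at, was below the filter, at 16.6 to 35.2 in Yaa and 10.8 to 24.4 in wild type.

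Mid1 encodes a microtubule-associated ubiquitin ligase. In C57BL/6 mice the gene spans the pseudoautosomal boundary, so part of it is normally present on the Y as well. Its tested probe set gave 519, 895, 1203 and 934 in Yaa, against 931, 863, 1036 and 1241 in wild type. Yaa 1 was the lowest of the 8 and Yaa 3 stood among the highest, and the groups overlapped. The log2 difference was -0.24 ± 0.24 (SE; 95% interval -0.79 to 0.31), which holds 0 and leaves out a doubling. It was -0.01 without Yaa 1, -0.58 with array weights and -0.52 without Yaa 2 and Yaa 3. In these last settings its unadjusted limma p was 0.0198 and 0.0323 (adjusted 0.325 and 0.493), so the interval then held neither 0 nor a doubling. The other Mid1 probe sets were below the filter, at 0.952 to 22.4 in Yaa and 0.587 to 21.4 in wild type.

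Hccs encodes holocytochrome c synthase, which attaches haem to cytochromes c in mitochondria. Its brightest probe set gave 971, 1151, 724 and 1026 in Yaa, against 432, 428, 482 and 526 in wild type. Yaa 3 was the lowest Yaa sample and still stood above every wild-type sample. At this probe set the log2 difference was 1.01 ± 0.16 (SE; 95% interval 0.65 to 1.38), or 2.02-fold, with a limma adjusted p of 0.174. The other probe set, 1420889_at, gave 379, 389, 329 and 400.4 in Yaa, against 161, 188, 179.9 and 162 in wild type, again without overlap. Its log2 difference was 1.05 ± 0.12 (SE; limma adjusted p = 0.055), so both probe sets of Hccs gave a difference close to a doubling.

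The bases before the start sites of Hccs and Tmsb4x are shown because they are the genes with the largest and the smallest difference among those whose groups did not overlap. Each is the 250 bases before the RefSeq start in GRCm38.p6, 5′ to 3′ on the gene's strand, chrX:169320373-169320622 on the minus strand for Hccs and chrX:167209219-167209468 on the minus strand for Tmsb4x. Capitals mark GGGCGG and its reverse complement CCGCCC, a GC box.
Hccs: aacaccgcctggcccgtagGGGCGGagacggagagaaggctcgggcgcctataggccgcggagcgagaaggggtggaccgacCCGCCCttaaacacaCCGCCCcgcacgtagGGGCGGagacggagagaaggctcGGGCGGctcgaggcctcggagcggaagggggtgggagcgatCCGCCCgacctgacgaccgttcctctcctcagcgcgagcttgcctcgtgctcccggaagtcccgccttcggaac
Tmsb4x: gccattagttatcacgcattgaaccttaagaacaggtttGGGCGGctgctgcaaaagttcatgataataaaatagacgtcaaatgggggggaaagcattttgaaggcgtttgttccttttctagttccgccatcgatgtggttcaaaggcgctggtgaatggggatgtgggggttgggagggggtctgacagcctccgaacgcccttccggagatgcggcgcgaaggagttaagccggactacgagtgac
The Hccs stretch holds 6 such boxes and 32 CpG dinucleotides, and the Tmsb4x stretch holds 1 box and 15 CpG dinucleotides. A GC box occurs in 35.7% of all RefSeq windows of 300 bases and in windows of 7 of the 10 member genes. TATAAA, searched on both strands, occurs in 13.6% of all windows and in those of 0 members, and CCAAT in 37.4% and in those of 4 members. Msl3, Arhgap6 and Mid1 have several windows each, so these counts of genes cannot be set directly against the shares of windows.

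Prps2 encodes a phosphoribosyl pyrophosphate synthetase, which supplies nucleotide synthesis. Its brightest probe set, 1454843_at, gave 1138, 1452, 607 and 1117 in Yaa, against 482, 749, 786 and 684 in wild type. Yaa 3 lay among the wild-type samples and the other 3 Yaa samples stood above them. The log2 difference was 0.62 ± 0.27 (SE; 95% interval 0.02 to 1.23), 0.87 without Yaa 3 and 0.75 without Yaa 2 and Yaa 3. The other 2 probe sets of Prps2 had log2 differences of 0.74 ± 0.18 and 0.74 ± 0.23 (SE). In 1420637_at the groups did not overlap, at 232 to 402 in Yaa and 160.3 to 209 in wild type. In 1420638_at Yaa 3, at 168, again lay within the wild-type range of 154 to 173. All 3 probe sets were lowest in Yaa 3 among the Yaa samples.

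Msl3 encodes the chromodomain subunit of the MSL complex, which acetylates histone H4 and in Drosophila raises transcription from the male X. Its signals were 590.0, 584, 759 and 659 in Yaa, against 366, 336, 292 and 286 in wild type. The groups were far apart, and Yaa 3 was the highest. The log2 difference was 0.98 ± 0.14 (SE; 95% interval 0.66 to 1.30), or 1.97-fold, with a limma adjusted p of 0.110, and it passed without Yaa 2 (adjusted p 0.0359). With the values as deposited it was 0.76 (limma adjusted p 0.796), and with arrays centred on their medians 0.85 (limma adjusted p 0.301). Tceanc encodes a protein with a domain like the amino-terminal domain of transcription elongation factor TFIIS. It gave 220.3, 143, 268 and 190.3 in Yaa, against 139.7, 114, 157 and 99.2 in wild type, and Yaa 2 lay within the wild-type range. The log2 difference of Tceanc was 0.61 ± 0.21 (SE; 95% interval 0.14 to 1.08), with a limma adjusted p of 0.960.

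**Figure D2:**
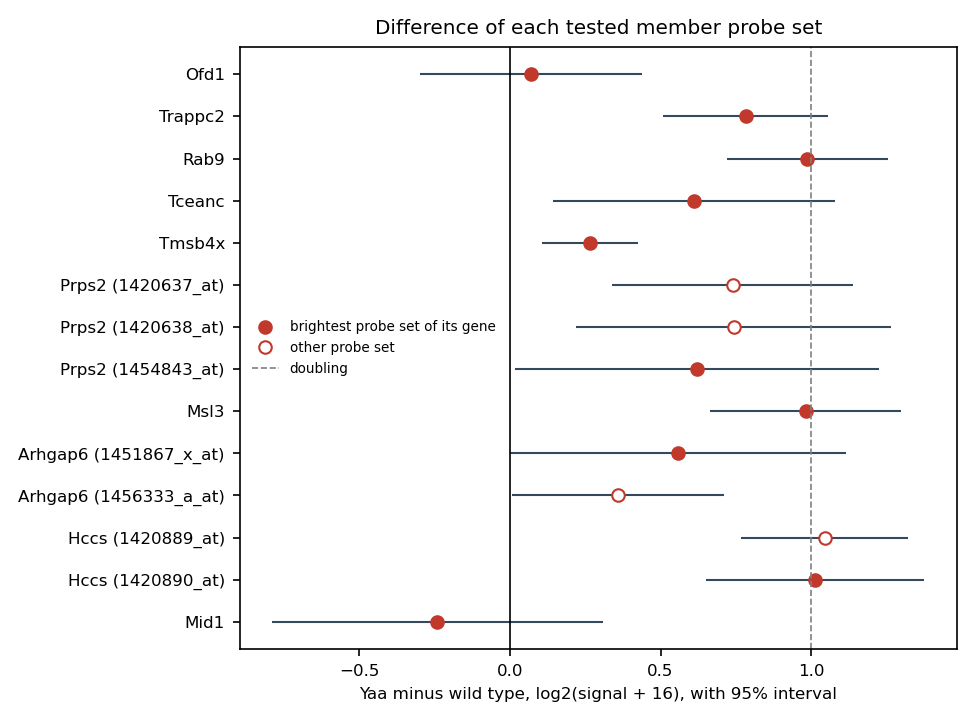
Log2 difference (Yaa minus wild type) of the 14 tested probe sets of the 10 genes, with 95% intervals from limma over 4 arrays a group; filled points stand for a gene and open points are its other probe sets. Both Hccs probe sets, Rab9 and Msl3 lie close to the dashed line of a doubling. Tmsb4x, whose doubled wild-type signal would lie above the highest signal of any probe set, lies at 0.27. The intervals of Ofd1, Mid1 and the brightest Arhgap6 probe set hold 0.

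Set beside a doubling, the genes were of several kinds. The 95% interval lay above 0 and held a log2 difference of 1 for 6 of 10 genes, Trappc2, Rab9, Tceanc, Prps2, Msl3 and Hccs, as it did for 1.74% of all tested genes. For Tmsb4x it lay above 0 and below 1, but a doubling was outside the range of signals in these files, as described above. For Arhgap6 it held both values at the brightest probe set, while at 1456333_a_at it ran from 0.006 to 0.71 and held neither. For Ofd1 and Mid1 it held 0 and left out 1. By probe set, 11 of 14 were higher at an unadjusted p under 0.05 in limma, against 2.97% of all tested probe sets, and 8 of 14 did not overlap, against 2.43%. The log2(signal + 16) scale shortens the differences of dim probe sets. With log2(signal + 1) the difference of Arhgap6 was 0.68 and that of Trappc2 0.83, while that of Tmsb4x was again 0.27.

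Differences between the genes were compared within arrays, for all 45 pairs of the 10 genes. In 13 pairs the within-array differences did not overlap between Yaa and wild type. This is the case with the smallest two-sided exact permutation p that 4 against 4 allows (p = 0.0286, and 0.0989 adjusted over the 45 pairs). After that adjustment 0 pairs had a p under 0.05. The count without overlap was 20 without Yaa 3 and 24 without Yaa 2 and Yaa 3. Groups of fewer arrays are apart more often by chance, so these counts cannot be set against the 13. Without Yaa 2 and Yaa 3 the smallest exact permutation p is 0.0667. Mid1 was in 6 of the 13 pairs, lower than Trappc2, Rab9, Tceanc, Msl3, Arhgap6 and Hccs in its response. Tmsb4x was in 4, with a smaller response than Hccs by 0.75, Rab9 by 0.72, Msl3 by 0.71 and Trappc2 by 0.52 on the log2 scale. A doubling of its wild-type signal would lie above the highest signal in these files. Whether this has a part in its smaller responses was not tested. Ofd1 was in 3, with a smaller response than Hccs by 0.94, Rab9 by 0.92 and Msl3 by 0.91. Rab9, Msl3 and Hccs differed from each other by 0.006 to 0.031 in their responses, with overlapping groups in each of these pairs (exact permutation p 0.800 to 0.943).

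Along the chromosome, the 95% intervals of the tested genes held 0 from Ap1s2 to Ofd1 and again from Mid1 to the end of the X. In the order of RefSeq, the tested genes Gemin8, Gpm6b and Ofd1 had log2 differences of -0.08, -0.12 and 0.07. The 8 member genes from Trappc2 through Hccs, a run bounded after its values were seen, had differences of 0.27 to 1.01 with a median of 0.70. Between them lie the receptors Tlr8 and Tlr7, with log2 differences of 0.73 ± 0.17 and 0.91 ± 0.21 (SE). The brightest Tlr7 probe set gave 244, 349, 181 and 217 in Yaa, against 143, 109, 135 and 99.4 in wild type, without overlap. Beyond Hccs, Mid1 was the next tested gene and had a difference of -0.24. It was followed by G530011O06Rik at -0.29, where all Yaa samples lay below all wild-type samples while the 95% interval of -0.71 to 0.14 held 0, and by Erdr1 at 0.16. These genes were named after their values were seen. Egfl6 and Amelx, which also lie in the stretch, did not pass the filter, which is set on the mean over all 8 arrays, at 0.510 to 11.8 in Yaa and 1.75 to 12.5 in wild type for Egfl6 and at 3.69 to 54.0 in Yaa and 4.07 to 40.7 in wild type for the probe sets of Amelx. Frmpd4, another gene of the stretch, had no probe set assigned to it alone.

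**Figure D3:**
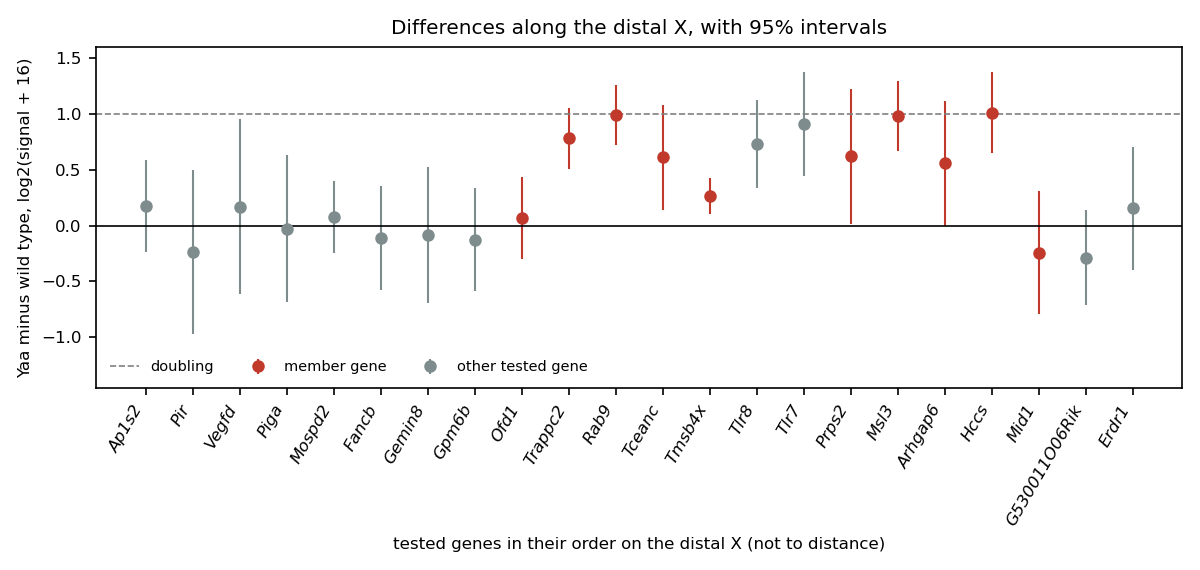
Log2 difference (Yaa minus wild type) with 95% intervals for the 22 tested genes from Ap1s2 to the end of the X, in RefSeq order and not to distance; member genes are red and other genes grey. Ofd1 is at 0.07 beside Trappc2 at 0.78, and at the other end Hccs is at 1.01 beside Mid1 at -0.24.

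X-linked genes outside this stretch were also examined. Of 292 tested, 0 were higher at an unadjusted p under 0.05 in limma (0.0%), 4 were lower (1.37%), and 2 had all Yaa arrays above all wild-type arrays (0.685%). Of 13 tested genes among 29 X neighbours of the stretch, 0 had an unadjusted p under 0.05, and their log2 differences ran from -0.24 to 0.24. Paralogues elsewhere in the genome stayed near 0. Tmsb10, the sister thymosin, had a log2 difference of -0.12 ± 0.09 (SE), Trappc2l -0.09 ± 0.14 (SE), Msl3l2 0.10 ± 0.43 (SE) and Prps1 -0.03 ± 0.14 (SE), and 0 of 5 tested paralogues had an unadjusted p under 0.05. At that threshold 3.23% of all tested genes were higher and 1.62% lower.

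Partners of the member proteins were also examined, among them other TRAPP and MSL subunits, mannose 6-phosphate receptors and cytochromes c. Of 27 tested, 0 had an unadjusted p under 0.05 in either direction, 12 had a difference above 0, and the median was -0.01. At that threshold 3.23% of all tested genes were higher and 1.62% lower. Msl2, the ubiquitin ligase of the MSL complex, had a log2 difference of -0.41 ± 0.27 (SE). Trappc9 had -0.23 ± 0.13 (SE), Trappc5 0.20 ± 0.13 (SE) and Cycs, which encodes the cytochrome c that Hccs matures, 0.14 ± 0.09 (SE). None of these 4 passed limma's test.

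The spread among Yaa samples was narrow for some of the genes and wide for others. Relative to the wild-type mean, the median log2 deviation of the 8 genes from Trappc2 to Hccs was 0.75, 0.83, 0.84 and 0.76 in Yaa 1 to 4, and -0.06, 0.08, -0.002 and 0.04 in wild type 1 to 4. Yaa 2 and Yaa 3, the arrays that stood apart over the whole genome, did not stand apart in this median. Of these 8 genes, 7, 7, 7 and 8 lay above every wild-type sample in Yaa 1 to 4. The run of 8 was bounded after its values were seen, which favours high medians and counts in Yaa. The share over all tested genes was not counted. Within Yaa, Trappc2 varied over a log2 range of 0.10 and Rab9 of 0.24, whereas Prps2 varied over 1.24 and Mid1 over 1.19. In Yaa 3, where the B cell markers were low, Tmsb4x, Prps2 and Hccs had their lowest Yaa values and Tceanc, Msl3, Arhgap6 and Mid1 their highest. The part of cell content in this was not tested.

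**Figure D4:**
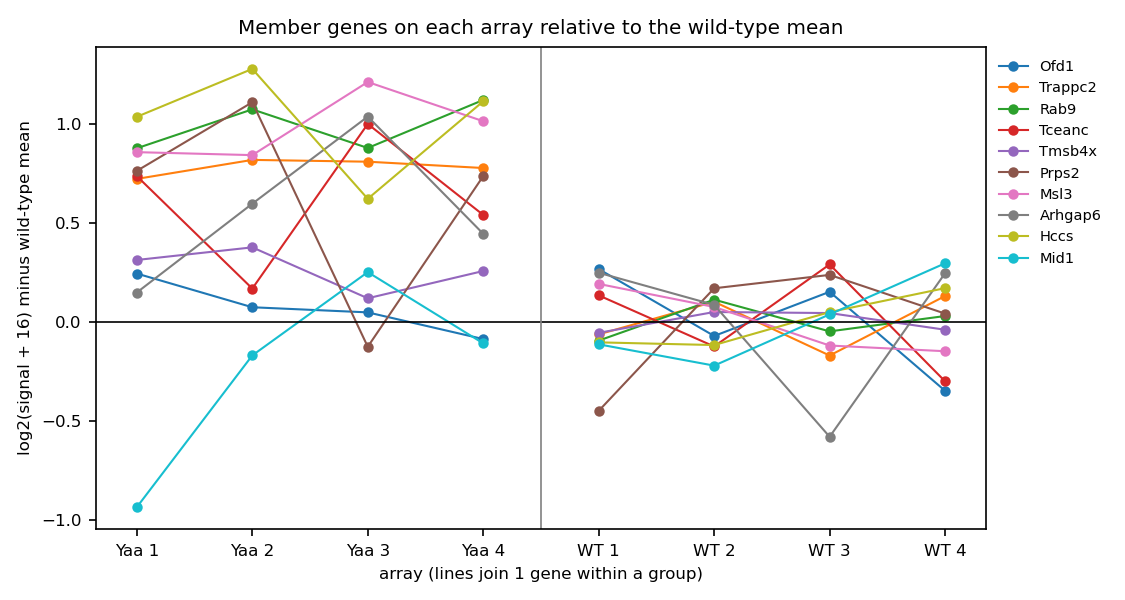
Log2(signal + 16) of the brightest probe set of each of the 10 genes on each array, minus the mean of the 4 wild-type arrays; lines join the values of 1 gene within a group. In Yaa, Trappc2 and Rab9 stay nearly level across the 4 arrays, whereas Prps2 lies at -0.13 in Yaa 3 and Mid1 at -0.94 in Yaa 1.

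When arrays were weighted by their fit in limma (0.218 for Yaa 2 and 0.223 for Yaa 3), 5 of the 10 genes rose past an adjusted p of 0.05, where 0.658% of all tested genes did. They were Rab9 at 0.93 ± 0.10, Hccs at 1.04 ± 0.11, Msl3 at 0.95 ± 0.11, Trappc2 at 0.71 ± 0.11 and Tmsb4x at 0.28 ± 0.05 (log2 difference ± SE; limma adjusted p 0.0036, 0.0036, 0.0054, 0.0205 and 0.0423). By probe set, 8 of 14 rose, against 0.453% of all tested probe sets. The probe sets 1420637_at and 1420638_at of Prps2 rose as well, at 0.81 ± 0.13 and 0.79 ± 0.12 (SE; limma adjusted p 0.0216 each), while its brightest one did not pass (limma adjusted p = 0.121). Without Yaa 2 and Yaa 3, which leaves 2 Yaa samples, Hccs, Rab9 and Msl3 rose (limma adjusted p 0.0063, 0.0069 and 0.0160), where 0.406% of all tested genes rose.

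Genes elsewhere in the genome followed the same pattern over the 8 arrays. Each of the 10 genes was scaled to unit variance and the mean profile set against 10330 other tested genes by Pearson correlation. The closest were Map3k12 (r = 0.980), Slfn4 (0.980), Mrps23 (0.970), Bloc1s4 (0.954) and Ifitm3 (0.948), none of them on the X, with log2 differences of 1.04, 2.24, 0.23, 0.45 and 0.64. The arrays were shared and the profile separates the groups, so any gene that differs between them correlates with it. Tlr7 ranked 37 (r = 0.891) and Tlr8 63 (r = 0.869) in this order.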

How the data were processed

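The deposited values are MAS5 signals per the submitters' processing notes, 1 linear intensity for each probe set; software version, scaling target and filters are unstated there, and batches are not named in the labels. Precision is limited by the number of arrays. Of 45101 probe sets, 64 were controls. The trimmed means (2% at each end) were not all within 10% of their median, so the arrays were quantile normalised and values taken as log2(signal + 16). Controls and probe sets at or below the median mean (a signal of about 25.7) were dropped, leaving 22518. The groups were fitted in limma 3.58.1 (R 4.3.3; lmFit, eBayes with trend), with Benjamini-Hochberg adjustment over all tested probe sets and a threshold of 0.05. The brightest tested probe set stood for a gene. Differences between pairs of member genes were tested by exact permutation (70 arrangements, two-sided). The fit was tested on simulated data.

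Symbols were updated through Entrez IDs to GRCm38.p6 (34741 of 34945 probe sets with 1 symbol matched). All 10 member genes had a RefSeq window in GRCm38.p6. The members, lists and tests were chosen with earlier results of these data known. Named are all members, the other genes of the segment, up to 4 genes per list by smallest p, and the 5 genes most like the mean member profile; Cd3e and Cd3d are among the T cell genes so chosen. Replicate numbers are shared between groups, but same-numbered samples did not deviate together (r -0.37 to 0.016), so they do not pair the samples. Figures used matplotlib 3.10.9 under Python 3.11.15.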

Additional observations from a re-analysis of the deposited data

How the results depend on the processing

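Of 188 recomputed differences of single member genes, 174 kept their direction and their side of the threshold, 11 passed it and 3 turned sign, all of them Ofd1: -0.13 with the values as deposited, -0.042 with median-centred arrays and -0.046 without wild type 4 (-0.046 to 0.16 with single samples left out). Some of these settings could not change a difference: another filter, no mean-variance trend and the replicate block alter its error alone. The mean over the probe sets of a gene has no p, and equals the main value where a gene has a single tested probe set. The values as deposited shifted the median of all tested probe sets by -0.20 and median-centring by -0.11. The median difference of the genes, 0.62, was 0.68 with log2(signal + 1), 0.53 with log2(signal + 64), 0.40 as deposited, 0.49 median-centred, 0.70 over the brightest 25% of probe sets, which leaves out Ofd1 and Arhgap6, 0.68 with array weights, 0.69 without Yaa 2 and Yaa 3, and 0.61 to 0.70 with single samples left out. As deposited, 4 genes in place of 7 had an unadjusted p under 0.05; with single samples left out the count was 6 to 7. Tceanc and Prps2 were each 0.40 as deposited, and Arhgap6 0.37. Rab9 and Msl3 were each 0.76 as deposited and 0.85 median-centred. Hccs was 0.80 as deposited and 0.89 median-centred, and Trappc2 0.56 and 0.64. Mid1 was -0.44 as deposited and, with single samples left out, -0.40 to -0.0087, with -0.40 without Yaa 3, -0.14 without wild type 4 and -0.0087 without Yaa 1. Single samples left out moved Arhgap6 to 0.36 to 0.69 and Prps2 to 0.46 to 0.87.

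Over the array limma called 1 probe set higher and 0 lower. It called 7 higher with log2(signal + 1), 0 in the brightest 25% (485 at an unadjusted p under 0.05), 102 higher and 41 lower with array weights, 74 and 29 without Yaa 2 and Yaa 3, 9 and 1 at an adjusted p under 0.10, and 1 to 28 higher and 0 to 3 lower with single samples left out. The count of 28 came without Yaa 2 and that of 9 without Yaa 4. The replicate block, whose numbers do not pair the samples, gave 0 higher and 6 member genes at an unadjusted p under 0.05 (731 probe sets over the array). The number of pairs of genes past the adjusted threshold was 0 in every setting run, with 12 to 24 pairs without overlap. Settings with fewer arrays leave the groups apart more often by chance. The smallest p of a pair passes the adjustment only where most of the 45 pairs reach it, and without Yaa 2 and Yaa 3 it is 0.0667 and cannot pass. The cause of these changes was not tested. No probe set of the members had a sample far from the other 3 of its group by Dixon's criterion.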
